A study of Mus musculus with 4 samples.

Results

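Scgb3a1, Cadm3, Mgp, Nsg1, Adh1, Car4, Syt15, and Gda are 8 of the 27998 genes counted in cells from the spinal cord (SC) of mice with experimental autoimmune encephalomyelitis (EAE), and 18096 of these genes had a transcript in an endothelial cell (EC). They were chosen by the difference of their levels in ECs between mice given a control antibody and mice given an antibody that blocks angiopoietin-2 (Ang2), so that their blockade values describe that choice and support nothing. EAE is a mouse model of multiple sclerosis in which immunization with a myelin peptide, MOG35-55 in CFA, given with pertussis toxin, is followed by entry of immune cells into the SC across inflamed vessels. All 4 groups had EAE, with a lower dose of the toxin in the overexpression pair. The blockade pair was wild-type C57Bl/6JOlaHsd mice, 15 weeks old and given as female in the study's methods. They were given mIgG1 or Ang2 Ab from the time of immunization and sampled at 14 days post immunization (dpi). The overexpression pair was mice given as C57Bl/6JCrl in the labels, with C57BL/6J as the background of both transgenic lines in the study's methods, aged 12 to 14 weeks and sampled at 12 dpi, in which EC-Ang2 mice carried VE-cadherin-tTA, which acts in ECs, together with a tetracycline-regulated Ang2 transgene that doxycycline in the food of the dams kept off until birth, and Ctrl mice were littermates with 1 of the 2 transgenes. Viable CD45+ and CD31+ cells were sorted, the same number of each, and made into 1 droplet library per group, and the number of mice in each library is not given in the sources used here. With 1 library per condition no difference could be tested. Ranges in parentheses after a level, share, or log2 ratio are its exact 95% interval, Poisson for levels and binomial for shares and ratios, for counting error alone.

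Ang2 is a ligand of the Tie2 receptor on ECs and is stored and released by ECs themselves. The vessels of the central nervous system run from arteries through capillaries to veins, and ECs along this axis differ in their transcripts: Bmx and Gkn3 mark the arterial end, Mfsd2a capillaries, Slc38a5 capillaries toward the venous side, and Ackr1 veins. The genes described here are of several unrelated kinds. Scgb3a1 and Mgp encode small secreted proteins, Cadm3 an adhesion molecule, Car4, Adh1, and Gda enzymes, and Nsg1 and Syt15 proteins of vesicle traffic.

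A level is given in CPM, the unique transcript counts (UMIs) of a gene in all ECs of a library scaled to 1000000 UMIs of these ECs, and a log2 ratio sets the treated over the control level. Barcodes with at least 2000 UMIs and under 10% mitochondrial UMIs were taken as cells and called ECs by at least 10 UMIs summed over 10 endothelial genes, more than 5 times the UMIs of the immune, mural, or fibroblast genes. ECs numbered 2836 (mIgG1), 3282 (Ang2 Ab), 3357 (Ctrl), and 2337 (EC-Ang2), with medians of 4822, 3652, 4293, and 6203 UMIs per cell in that order. Immune cells numbered 3676 (mIgG1), 3591 (Ang2 Ab), 2676 (Ctrl), and 2767 (EC-Ang2), with medians of 7842, 5994, 6650.0, and 7267 UMIs. The libraries held 52084739 to 66631583 UMIs in all, and any 2 of them shared 4 to 14 EC barcodes. All 10 endothelial genes were present in the ECs of each library, led by Cldn5 at 4444 to 6874 CPM. Angpt2, the gene of Ang2, was at 50.1 CPM (mIgG1), 307 (Ang2 Ab), 65.8 (Ctrl), and 1124 (EC-Ang2) in ECs, so that the transgenic library was the highest and the library from antibody-treated mice was also above its control. UMIs of the transgene and of the mouse's own gene are not told apart in these counts. Summed hemoglobin genes of ECs were at 2.06 CPM (mIgG1), 1102 (Ang2 Ab), 8434 (Ctrl), and 1783 (EC-Ang2), lowest in mIgG1 and highest in Ctrl, and their part in the values below was not tested.

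The promoters of 5 members are shown, each 300 bases long, because these genes differed from their controls in opposite directions in both pairs: Scgb3a1, Syt15, and Car4 were higher in Ang2 Ab and lower in EC-Ang2 than in their controls, and Cadm3 and Adh1 the reverse, as was Nsg1, which has no entry. The windows run from 250 bases before to 50 after the start in the RefSeq annotation of GRCm38.p6, which held 6 of the 8 genes. They lie at chr11:49663345-49663644 on the plus strand for Scgb3a1, chr14:34219796-34220095 on the plus strand for Syt15, chr11:84957504-84957803 on the plus strand for Car4, chr1:173367646-173367945 on the minus strand for Cadm3, and chr3:138277335-138277634 on the plus strand for Adh1. The windows of Adh1 and Syt15 lie inside the genes as GENCODE M21 gives them, whose first bases are upstream of these windows. Capitals mark matches to the motifs described next.
Scgb3a1: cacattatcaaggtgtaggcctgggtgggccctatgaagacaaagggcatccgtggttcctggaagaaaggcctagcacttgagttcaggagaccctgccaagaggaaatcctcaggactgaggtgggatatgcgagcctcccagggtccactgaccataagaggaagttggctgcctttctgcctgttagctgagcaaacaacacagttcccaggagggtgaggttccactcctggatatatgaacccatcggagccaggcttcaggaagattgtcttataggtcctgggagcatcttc
Syt15: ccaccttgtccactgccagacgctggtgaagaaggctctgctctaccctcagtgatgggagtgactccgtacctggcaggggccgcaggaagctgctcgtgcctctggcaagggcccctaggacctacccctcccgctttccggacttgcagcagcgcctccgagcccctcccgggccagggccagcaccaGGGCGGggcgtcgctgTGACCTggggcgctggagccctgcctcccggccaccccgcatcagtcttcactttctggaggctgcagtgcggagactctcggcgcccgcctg
Car4: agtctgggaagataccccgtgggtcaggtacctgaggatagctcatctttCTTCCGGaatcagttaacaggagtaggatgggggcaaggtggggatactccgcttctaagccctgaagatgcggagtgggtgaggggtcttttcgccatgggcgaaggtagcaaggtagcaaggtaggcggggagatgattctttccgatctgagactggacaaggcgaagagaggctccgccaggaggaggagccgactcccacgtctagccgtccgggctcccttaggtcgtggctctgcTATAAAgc
Cadm3: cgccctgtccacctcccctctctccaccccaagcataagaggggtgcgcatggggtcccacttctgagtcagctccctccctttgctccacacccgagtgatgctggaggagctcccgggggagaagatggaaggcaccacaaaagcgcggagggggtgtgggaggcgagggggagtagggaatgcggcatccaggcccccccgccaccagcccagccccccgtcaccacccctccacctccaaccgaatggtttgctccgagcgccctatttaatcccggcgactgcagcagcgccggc
Adh1: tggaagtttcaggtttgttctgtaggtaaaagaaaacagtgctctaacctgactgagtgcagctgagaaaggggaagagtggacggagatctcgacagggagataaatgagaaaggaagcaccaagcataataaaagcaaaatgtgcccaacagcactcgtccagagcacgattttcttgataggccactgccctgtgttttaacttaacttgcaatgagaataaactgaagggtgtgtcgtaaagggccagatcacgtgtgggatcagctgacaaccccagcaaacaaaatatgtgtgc

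The windows were searched on both strands for a GC box (GGGCGG, held by 35.7% of all 32851 promoters), a nuclear receptor half-site (AGGTCA, 16.3%), a TATA box (TATAAA, 13.6%), an ETS motif (CCGGAAG, 8.86%), a TCF/LEF motif (CTTTGAA, 5.14%), a SOX motif (ACAATGG, 3.66%), and a FOX motif (GTAAACA, 3.65%). Syt15 held the GC box and, on the other strand and not overlapping it, the nuclear receptor half-site. These letters were not found in the windows of Scgb3a1, Cadm3, Adh1, or Gda, and Car4 held the ETS motif, on the other strand, and the TATA letters, after its start. The windows also differed in composition, with 69.0% G and C in Syt15, 57.3% in Car4, and 66.7% in Cadm3, against 53.3% in Scgb3a1 and 45.3% in Adh1, where the median promoter had 52.7%. No motif was shared among Scgb3a1, Syt15, and Car4 or between Cadm3 and Adh1.

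Of the 8 genes, 6 had log2 ratios of opposite sign with blockade and overexpression, with intervals that leave out 0 (Scgb3a1, Cadm3, Nsg1, Adh1, Car4, and Syt15), and 2, Mgp and Gda, were higher than the control in both, Gda with an overexpression interval that begins at 0.00. Among 11103 genes with 50 UMIs in each pair, 16.8% had opposite signs with both intervals off 0, and these were 70.2% of the 2655 genes with both intervals off 0, so that 6 of 8 is close to the share of all such genes. The direction with blockade was fixed by the choice of the genes, and earlier results of both pairs were known when they were chosen. The pairs share no library, but they differ in substrain, age, and day. A gene was counted as changed in size when its level differed at least 1.5-fold, it had 50 UMIs in both libraries of a pair together, and it had a UMI in 10% of the ECs of 1 of them. Scgb3a1, Cadm3, Mgp, Nsg1, and Car4 met the conditions on UMIs and cells in both pairs, and Adh1, Syt15, and Gda were found in too few cells. With blockade 2 of these 5 genes were higher (Scgb3a1 and Mgp) and 1 was lower (Cadm3), beside 1.47% and 1.44% of 6050 genes, shares from which nothing is read because this contrast chose the genes. With overexpression 2 were higher (Cadm3 and Nsg1) and 2 lower (Scgb3a1 and Car4), beside 5.68% higher and 5.83% lower of 6775 genes. Cadm3 met the condition on cells only through the library where it was higher. It had a UMI in 18.1% of ECs in EC-Ang2 and 6.20% in Ctrl, and in 19.7% in mIgG1 and 8.38% in Ang2 Ab, without thinning. Nothing is read from the overexpression counts either. The median log2 ratio of all genes with 50 UMIs was 0.03 with blockade and −0.05 with overexpression.

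**Figure D1:**
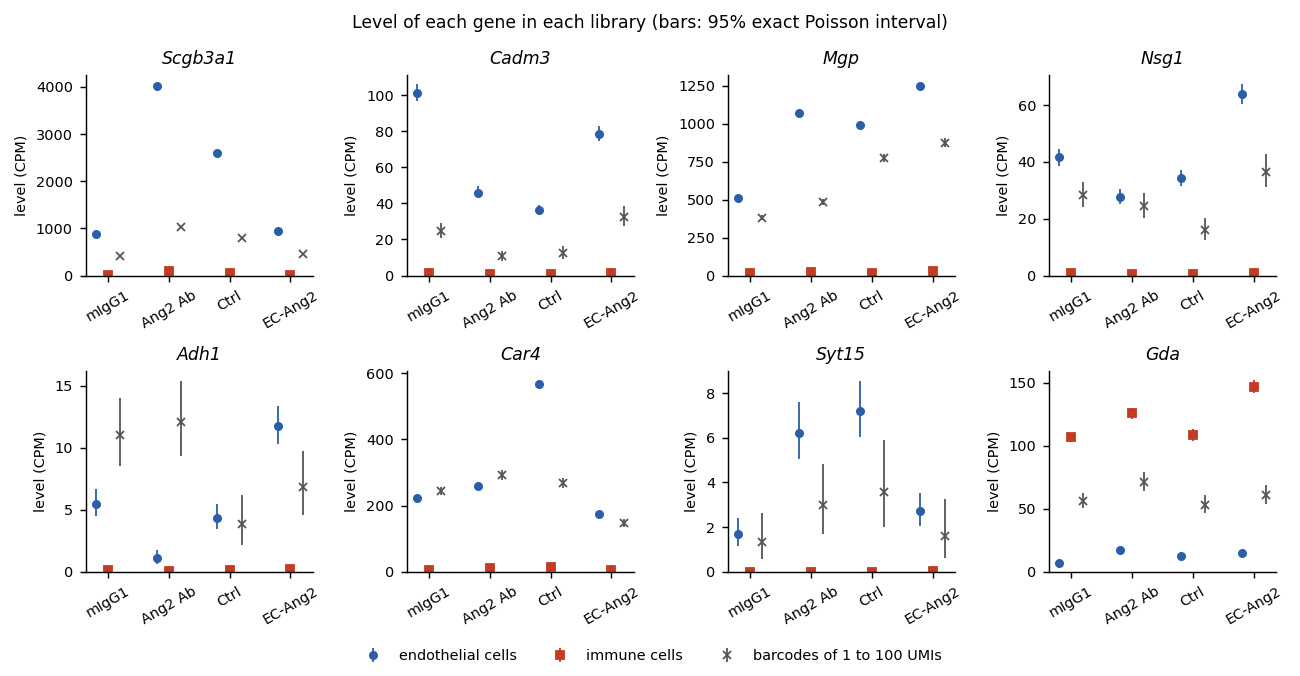
Level of each gene in CPM (vertical axis, from 0) in the 4 libraries (horizontal axis) for ECs (circles), immune cells (squares), and barcodes of 1 to 100 UMIs (crosses), with 95% exact Poisson intervals. Scgb3a1 of ECs stood at 4029 CPM in Ang2 Ab against 884 CPM in mIgG1, and Gda was the one gene with a higher level in immune cells than in ECs in all 4 libraries.

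Scgb3a1 encodes a secretoglobin, a small secreted protein known mainly from airway epithelium, and lies at chr11:49663610-49665118, plus strand (protein coding, 4 exons at most). Its level in ECs was 884 CPM (870.5 to 898) for mIgG1, 4029 (3998 to 4061) for Ang2 Ab, 2589.9 (2566 to 2614) for Ctrl, and 943 (929 to 956) for EC-Ang2. The antibody-treated library thus stood highest and its control lowest, with EC-Ang2 near the lowest and Ctrl between. The log2 ratio was 2.19 (2.16 to 2.21) with blockade and −1.46 (−1.48 to −1.43) with overexpression. Markers of lung and other epithelia were few in ECs: Scgb1a1 was at 0.192 to 0.380 CPM in the blockade pair and at 0 in the overexpression pair, and Sftpc was at 3.53 CPM in mIgG1, 11.5 CPM in Ang2 Ab, and 0 in Ctrl and EC-Ang2. Summed over the 4 epithelial genes (Scgb1a1, Sftpc, Epcam, and Krt8), ECs had 4.56 CPM (mIgG1), 12.7 (Ang2 Ab), 0.112 (Ctrl), and 0.302 (EC-Ang2), in the blockade pair mostly Sftpc. Barcodes of 1 to 100 UMIs held 763 CPM (mIgG1), 855 (Ang2 Ab), 1.91 (Ctrl), and 2.95 (EC-Ang2) of these genes. Transcripts of lung and other epithelia were thus present in the background of the blockade pair, and their part in the Scgb3a1 values was not tested. The same barcodes held 69 (mIgG1), 84 (Ang2 Ab), 0 (Ctrl), and 1 (EC-Ang2) UMIs of Y-linked genes. ECs held 0 (mIgG1), 2 (Ang2 Ab), 1 (Ctrl), and 1 (EC-Ang2) of these. The source of this background was not tested. None of 3 other secretoglobin genes reached 50 UMIs in either pair.

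Scgb3a1 differed between libraries both in the share of ECs with the transcript and in its amount per cell. With each cell thinned to 2000 UMIs, a UMI of Scgb3a1 was present in 43.1% (mIgG1), 71.2% (Ang2 Ab), 54.4% (Ctrl), and 43.3% (EC-Ang2) of ECs, and without thinning in 60.3% (mIgG1), 80.6% (Ang2 Ab), 67.6% (Ctrl), and 63.8% (EC-Ang2). Immune cells, which should lack it, had shares of 3.37% (mIgG1), 18.2% (Ang2 Ab), 8.82% (Ctrl), and 3.76% (EC-Ang2) after thinning, nearly all of a single UMI. At least 20 UMIs of 2000 were present in 2.12% (mIgG1), 14.6% (Ang2 Ab), 8.19% (Ctrl), and 3.34% (EC-Ang2) of ECs and in none of the immune cells of any library. Among ECs with the transcript the mean was 4.96 UMIs (mIgG1), 12.1 (Ang2 Ab), 9.48 (Ctrl), and 6.28 (EC-Ang2). The tenth of ECs with the most Scgb3a1 held 68.6% (mIgG1), 51.1% (Ang2 Ab), 64.8% (Ctrl), and 70.6% (EC-Ang2) of its UMIs, the smallest share in Ang2 Ab.

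**Figure D2:**
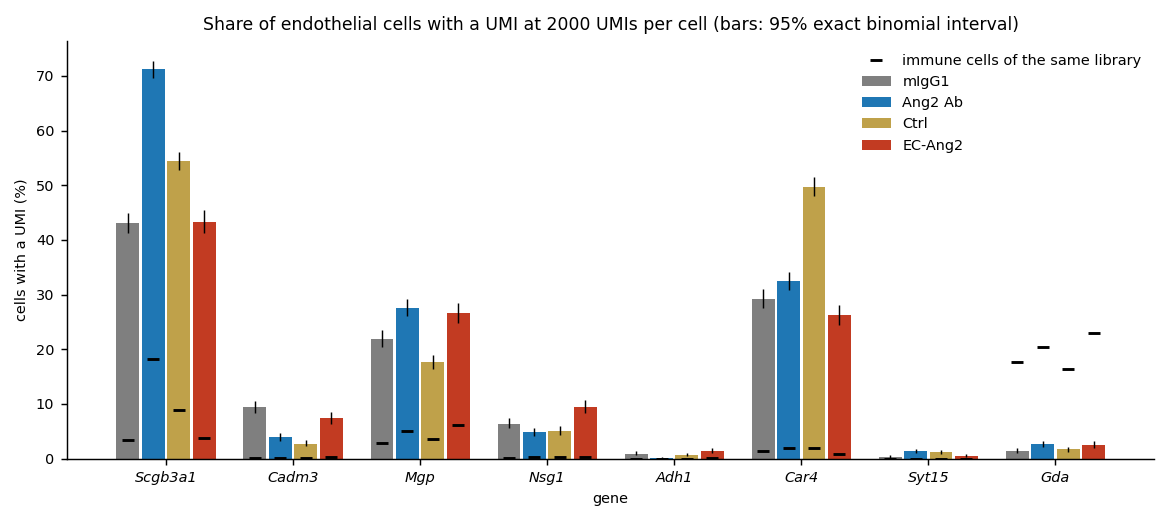
Share of ECs with at least 1 UMI (vertical axis, percent, from 0) for each gene (horizontal axis) after each cell was thinned to 2000 UMIs, in 1 bar per library with its 95% exact binomial interval. Dashes give the share among immune cells of the same library, which for Scgb3a1 reached 18.2% in Ang2 Ab and for Gda lay above all bars.

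ECs were then divided by at least 2 UMIs of Bmx and Gkn3 together, Mfsd2a, Slc38a5, or Ackr1, to see where along the vessel axis each gene was found. The classes are called by these genes. Arterial and venous marker genes that were not used to divide the cells followed them: in mIgG1, Ang2 Ab, and Ctrl all 8 arterial markers tested were highest in the Bmx/Gkn3 class, as were 7 of 8 in EC-Ang2, and all 6 venous markers were highest in the Ackr1 class of each library. The Slc38a5 class had no separate marker to check it. The study lists Slc38a5 among venous markers and Scgb3a1 itself among markers of capillary-venous ECs. Cells of the Ackr1 class made up 35.4% (mIgG1), 23.6% (Ang2 Ab), 14.4% (Ctrl), and 37.3% (EC-Ang2) of ECs, and 29.8% (mIgG1), 20.7% (Ang2 Ab), 12.1% (Ctrl), and 32.2% (EC-Ang2) when the cells were thinned first. The Slc38a5 class made up 18.2% (mIgG1), 22.6% (Ang2 Ab), 20.5% (Ctrl), and 8.69% (EC-Ang2), the Mfsd2a class 5.61% (mIgG1), 6.55% (Ang2 Ab), 14.4% (Ctrl), and 4.71% (EC-Ang2), and the Bmx/Gkn3 class 7.55% (mIgG1), 7.98% (Ang2 Ab), 8.67% (Ctrl), and 8.64% (EC-Ang2). The Ackr1 share was thus lower in Ang2 Ab than in mIgG1 and higher in EC-Ang2 than in Ctrl, while the Bmx/Gkn3 share differed little. Ackr1 itself was at 2263 CPM (mIgG1), 1982 (Ang2 Ab), 1359 (Ctrl), and 3150 (EC-Ang2) over all ECs. The study lists Ackr1 among capillary-venous genes that moved inversely with blockade and overexpression. A difference in Ackr1 level and one in the share of venous cells cannot be told apart by this class. ECs with no class marker were 26.3% (mIgG1), 33.0% (Ang2 Ab), 28.7% (Ctrl), and 34.1% (EC-Ang2), those with both Mfsd2a and Slc38a5 4.58% (mIgG1), 4.997% (Ang2 Ab), 12.5% (Ctrl), and 1.63% (EC-Ang2), and those with both arterial and Ackr1 markers 2.33% (mIgG1), 1.22% (Ang2 Ab), 0.834% (Ctrl), and 4.88% (EC-Ang2).

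**Figure D3:**
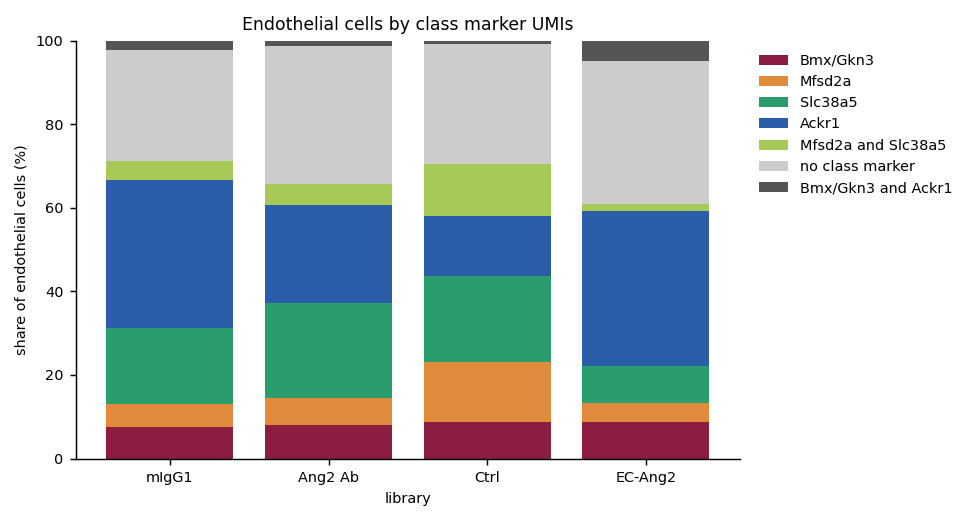
Share of the ECs of each library (vertical axis, percent, from 0 to 100) in each class of marker UMIs, stacked by class, for the 4 libraries (horizontal axis). The Ackr1 class is the largest named class in mIgG1, Ang2 Ab, and EC-Ang2, in Ang2 Ab at 23.6% against 22.6% for the Slc38a5 class, and is 14.4% of ECs in Ctrl.

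The classes of ECs held Scgb3a1 unequally. In the Slc38a5 class its level was 1800.3 CPM (mIgG1), 7636 (Ang2 Ab), 4624 (Ctrl), and 2712 (EC-Ang2), the highest of the 4 classes in every library. In the Ackr1 class it was 750.2, 2827, 2172, and 586 CPM, in the Mfsd2a class 615, 2985, 2097, and 1460.2 CPM, and in the Bmx/Gkn3 class 221, 1134, 707, and 746 CPM, each in the order mIgG1, Ang2 Ab, Ctrl, and EC-Ang2. ECs with both Mfsd2a and Slc38a5 had 1243, 8608, 3102, and 3453 CPM, more than the Slc38a5 class in Ang2 Ab and EC-Ang2. With blockade the log2 ratio was above 0 in all 4 classes but not equal in size, at 1.91 (1.87 to 1.95) in the Ackr1 class, 2.08 (2.04 to 2.13) in the Slc38a5 class, 2.28 (2.13 to 2.43) in the Mfsd2a class, and 2.36 (2.17 to 2.55) in the Bmx/Gkn3 class. It was 2.79 (2.69 to 2.89) in ECs with both Mfsd2a and Slc38a5, 1.82 (1.76 to 1.88) in those with no class marker, and 1.24 (1.05 to 1.43) in those with arterial and Ackr1 markers. With overexpression it ran from −1.89 (−1.94 to −1.84) in the Ackr1 class through −0.77 (−0.82 to −0.72) in the Slc38a5 class and −0.52 (−0.64 to −0.41) in the Mfsd2a class to 0.08 (−0.04 to 0.19) in the Bmx/Gkn3 class, with intervals below 0 in 3 classes and one that includes 0 in the Bmx/Gkn3 class. In the remaining ECs it was −1.45 (−1.64 to −1.25) with arterial and Ackr1 markers and −0.62 (−0.66 to −0.57) with no class marker, and 0.15 (0.04 to 0.27), on the other side of 0, with both Mfsd2a and Slc38a5. The value of the Bmx/Gkn3 class turned on how cells were assigned, with −0.62 at a minimum of 1 UMI, 0.25 at 3 UMIs, and 2.30 when classes were set on thinned cells, where that of the Mfsd2a class was −0.02. The Ackr1 and Slc38a5 classes stayed below 0 under these settings. Within the Slc38a5 class 88.8% of Ang2 Ab cells and 58.4% of mIgG1 cells had a UMI after thinning, with means of 15.5 and 3.95 UMIs per cell. When the shares of the classes were held at their mean over the pair, the log2 ratio over all ECs was 2.04 with blockade and −0.86 with overexpression. Holding the class shares, here and for the other genes, was a setting added once the data had been seen. It takes the classes as their marker UMIs set them.

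**Figure D4:**
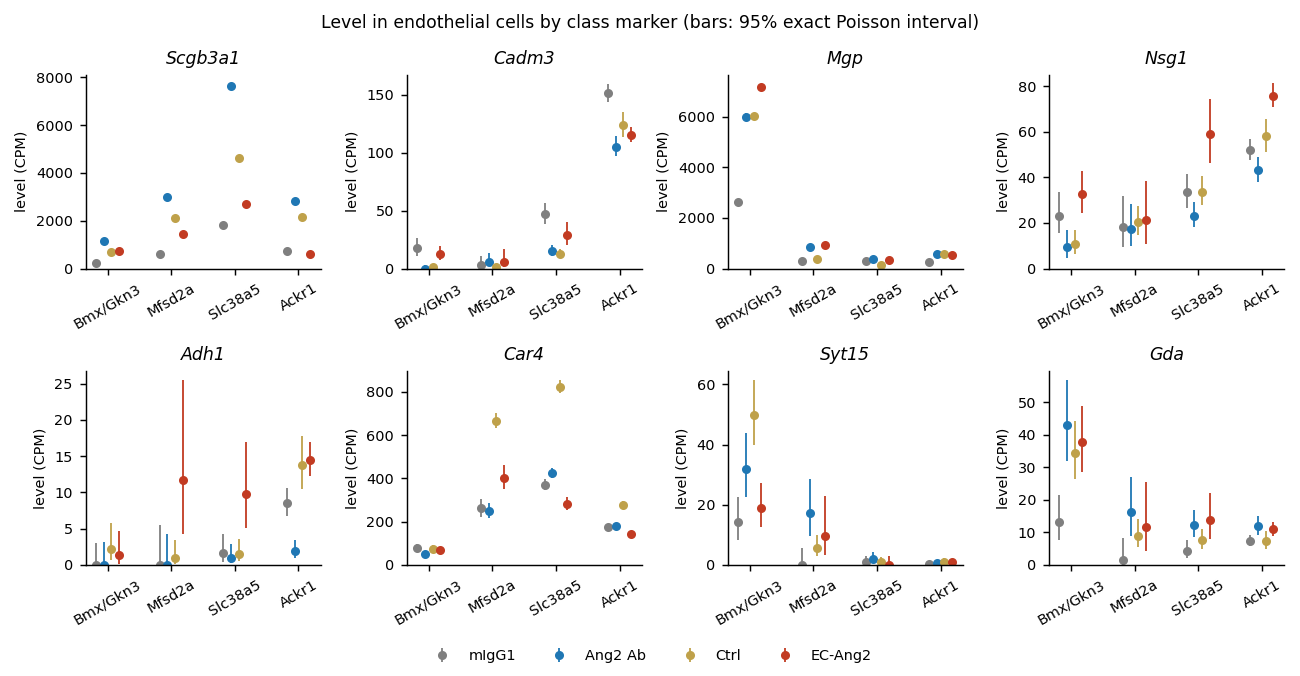
Level of each gene in CPM (vertical axis, from 0) in the 4 classes of ECs (horizontal axis), with 1 point per library and 95% exact Poisson intervals. Scgb3a1 is highest in the Slc38a5 class in every library, Cadm3 and Nsg1 in the Ackr1 class, and Mgp, Syt15, and Gda in the Bmx/Gkn3 class.

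Mgp and Syt15 were both higher in Ang2 Ab than in mIgG1 and were highest in the Bmx/Gkn3 class, as was Gda. Mgp, at chr6:136872435-136875823, minus strand, encodes matrix Gla protein, a secreted protein that inhibits calcification of vessel walls and binds bone morphogenetic proteins (BMPs). Its level in ECs was 511 CPM (501 to 521) for mIgG1, 1067 (1051 to 1084) for Ang2 Ab, 989.8 (975 to 1005) for Ctrl, and 1245 (1229.8 to 1261) for EC-Ang2, lowest in mIgG1, with the highest in EC-Ang2. Mgp had a log2 ratio of 1.06 (1.03 to 1.10) with blockade and 0.33 (0.30 to 0.36) with overexpression. In the Bmx/Gkn3 class the level was 2625 CPM (mIgG1), 5989.8 (Ang2 Ab), 6037 (Ctrl), and 7173 (EC-Ang2), and in the remaining classes it was between 145 and 927 CPM. With blockade the log2 ratio was 1.19 in the Bmx/Gkn3 class, 1.51 in the Mfsd2a class, 0.31 in the Slc38a5 class, and 1.21 in the Ackr1 class. With overexpression it was 1.35 and 1.24 in the Mfsd2a and Slc38a5 classes, 0.25 in the Bmx/Gkn3 class, and −0.17 in the Ackr1 class. The Ackr1 value was 0.13 when 1 UMI set the class, and the Bmx/Gkn3 value −0.14 when Nr2f2 replaced Ackr1, so that neither sign held under every assignment. With cells thinned to 2000 UMIs the value over all ECs was 0.82.

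Mgp is also a gene of mural cells, the pericytes and smooth muscle cells around vessels. The 35, 23, 22, and 19 mural cells of the libraries had 4492, 3412, 3289, and 6992 CPM of it. The 8 mural markers together were at 127 CPM (mIgG1), 154 (Ang2 Ab), 161 (Ctrl), and 77.7 (EC-Ang2) in ECs against 26358 to 29715 CPM in mural cells. At that share, mural transcripts would bring 17.8 to 20.3 CPM of Mgp into ECs, at most 3.90% of its level there. Barcodes rich in these same markers were not called ECs, so the low share was partly set by the gate. The part of mural transcripts in the Mgp values was not tested. A UMI of Mgp was present in 21.9% (mIgG1), 27.6% (Ang2 Ab), 17.6% (Ctrl), and 26.7% (EC-Ang2) of thinned ECs, against 2.77% (mIgG1), 5.10% (Ang2 Ab), 3.55% (Ctrl), and 6.07% (EC-Ang2) of immune cells, and in 32.6% (mIgG1), 35.5% (Ang2 Ab), 25.0% (Ctrl), and 42.3% (EC-Ang2) of ECs before thinning. Of the 8 measured genes on a list of 10 BMP ligands, receptors, and targets, 1 was higher by 1.5-fold with blockade, Smad7 (0.78), and 0 lower, and the median was 0.26. With overexpression Bmp4 (2.40) and Bmp2 (1.55) were higher, Id1 (−0.77) was lower, and the median was −0.25.

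Syt15, at chr14:34219595-34230420, plus strand, encodes a member of the synaptotagmins, proteins of membrane traffic. Few transcripts of it were counted, with 31 UMIs (mIgG1), 97 (Ang2 Ab), 129 (Ctrl), and 54 (EC-Ang2) in ECs. This came to 1.68 CPM (1.14 to 2.39) for mIgG1, 6.21 (5.04 to 7.58) for Ang2 Ab, 7.21 (6.02 to 8.56) for Ctrl, and 2.71 (2.04 to 3.54) for EC-Ang2, higher in Ang2 Ab and Ctrl than in mIgG1 and EC-Ang2. Blockade gave a log2 ratio of 1.88 (1.29 to 2.52) and overexpression −1.41 (−1.89 to −0.94). Its level was 14.1 CPM (mIgG1), 31.9 (Ang2 Ab), 49.8 (Ctrl), and 18.9 (EC-Ang2) in the Bmx/Gkn3 class and at most 0.937 CPM in the Ackr1 class. The Mfsd2a class had 0 CPM (mIgG1), 17.3 (Ang2 Ab), 5.66 (Ctrl), and 9.76 (EC-Ang2), from 0, 15, 12, and 5 UMIs. With overexpression the log2 ratio there was 0.79 (−1.07 to 2.39), an interval that includes 0. In the Bmx/Gkn3 class the log2 ratio was 1.18 (0.31 to 2.0963) with blockade, from 17 and 37 UMIs, and −1.40 (−2.06 to −0.78) with overexpression. Immune cells had 1 UMI of it in EC-Ang2 and 0 in the other libraries. A UMI was present in 0.353% (mIgG1), 1.34% (Ang2 Ab), 1.13% (Ctrl), and 0.513% (EC-Ang2) of thinned ECs and in 1.09% (mIgG1), 2.41% (Ang2 Ab), 2.65% (Ctrl), and 1.93% (EC-Ang2) of ECs before thinning. Of the other synaptotagmin genes on a list of 6, Syt7 (0.40) and Syt11 (0.31) had 50 UMIs in the blockade pair and neither passed 1.5-fold, and with overexpression Syt7 (−0.86) and Syt4 (−1.15) were lower by that size.

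Cadm3 encodes an immunoglobulin-type cell adhesion molecule known from the nervous system. Its level in ECs was 102 CPM (97.0 to 106) for mIgG1, 46.0 (42.7 to 49.5) for Ang2 Ab, 36.3 (33.6 to 39.2) for Ctrl, and 78.8 (74.9 to 82.8) for EC-Ang2, high in mIgG1 and EC-Ang2 and low in Ang2 Ab and Ctrl. The log2 ratio was −1.14 (−1.27 to −1.02) with blockade and 1.12 (0.98 to 1.25) with overexpression. It was a gene of the Ackr1 class, with 151 CPM (mIgG1), 105 (Ang2 Ab), 124 (Ctrl), and 116 (EC-Ang2) there, followed by the Slc38a5 class with 46.7, 15.0, 12.4, and 29.2 CPM. Between libraries its level within the Ackr1 class differed less than over all ECs, with log2 ratios of −0.53 (−0.67 to −0.39) and −0.10 (−0.25 to 0.05). In the Slc38a5 class they were −1.64 (−2.17 to −1.13) with blockade and 1.23 (0.55 to 1.91) with overexpression, but 0.17 with overexpression when classes were set on thinned cells. With Nr2f2 in place of Ackr1 the ratio of the venous class was −0.10 with blockade and −0.39 with overexpression. With the UMI shares of all classes held at the mean of the pair, the ratio over all ECs was −0.69 with blockade and 0.06 with overexpression. With every class weighted equally it was −0.87 with blockade and 0.37 with overexpression. The part of the Ackr1 class alone was not tested.

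The position of Cadm3 bears on this class. Cadm3, at chr1:173333258-173367695, minus strand, and Ackr1, at chr1:173331886-173333750, are neighbors on the same strand, and the GENCODE M21 annotation of GRCm38 gives them an overlap of 493 bases, which are reached by 1 of 5 Cadm3 transcripts. How UMIs from the shared bases were assigned to either gene was not tested. ECs had 4.49 UMIs (mIgG1), 2.32 (Ang2 Ab), 2.67 (Ctrl), and 2.50 (EC-Ang2) of Cadm3 for each 100 UMIs of Ackr1. In ECs with 0 UMIs of Ackr1, Cadm3 was at 15.8 CPM (mIgG1), 5.10 (Ang2 Ab), 3.45 (Ctrl), and 12.6 (EC-Ang2), again high in mIgG1 and EC-Ang2. In ECs with 5 or more UMIs of Ackr1 it was at 157, 112, 129.7, and 121 CPM in the same order. Those cells held 4499, 5780.2, 5978, and 5723 CPM of Ackr1, so that mIgG1 was highest in Cadm3 and lowest in Ackr1. When Nr2f2, another gene of veins, marked the class in place of Ackr1, Cadm3 was highest in that class in mIgG1, Ang2 Ab, and Ctrl and in the Slc38a5 class in EC-Ang2.

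Cadm3 was found in few ECs at equal depth, 9.41% (mIgG1), 3.93% (Ang2 Ab), 2.74% (Ctrl), and 7.40% (EC-Ang2), beside 0.163% (mIgG1), 0.167% (Ang2 Ab), 0.0747% (Ctrl), and 0.289% (EC-Ang2) of immune cells, and in 19.7% (mIgG1), 8.38% (Ang2 Ab), 6.20% (Ctrl), and 18.1% (EC-Ang2) of ECs before thinning. Within the Ackr1 class, cells with a thinned UMI of Cadm3 had 1.68 UMIs (mIgG1), 3.44 (Ang2 Ab), 5.31 (Ctrl), and 1.42 (EC-Ang2) of Scgb3a1 on average, against 1.75, 6.71, 5.12, and 1.56 in cells without one. In Ang2 Ab the mean was lower in the cells with Cadm3, over 100 cells with and 675 without it, and in the other libraries both means lay close together, a difference that was not tested. Of the other genes of the Cadm family, Cadm1 had 50 UMIs in each pair, with log2 ratios of −0.31 and −0.31.

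Nsg1, at chr5:38137192-38159907, minus strand, encodes an endosomal membrane protein first described in neurons, and part of it lies opposite Stx18 on the other strand. Its level in ECs was 41.6 CPM (38.7 to 44.6) for mIgG1, 27.8 (25.2 to 30.5) for Ang2 Ab, 34.3 (31.7 to 37.2) for Ctrl, and 63.8 (60.4 to 67.4) for EC-Ang2, with EC-Ang2 the highest and Ang2 Ab the lowest. The blockade ratio was −0.58 (−0.75 to −0.41) on the log2 scale, just short of 1.5-fold, and the overexpression ratio 0.89 (0.75 to 1.04). Its level in the Ackr1 class, the highest of the 4 classes, was 52.0 CPM (mIgG1), 43.1 (Ang2 Ab), 58.1 (Ctrl), and 75.9 (EC-Ang2), although in EC-Ang2 the Slc38a5 class was highest at a minimum of 3 UMIs and on thinned cells. In the Ackr1 class the log2 ratios were −0.27 (−0.50 to −0.05) and 0.39 (0.18 to 0.60). In the Slc38a5 class they were −0.52 (−1.01 to −0.05) and 0.82 (0.37 to 1.25), and in the Bmx/Gkn3 class −1.29 (−2.45 to −0.24) and 1.5997 (0.81 to 2.44). With the class shares held the ratios were −0.38 and 0.60. Thinned ECs had a UMI of it in 6.38% (mIgG1), 4.84% (Ang2 Ab), 5.09% (Ctrl), and 9.50% (EC-Ang2), against 0.163% (mIgG1), 0.195% (Ang2 Ab), 0.224% (Ctrl), and 0.253% (EC-Ang2) of immune cells, and in 18.2% (mIgG1), 10.7% (Ang2 Ab), 13.8% (Ctrl), and 28.3% (EC-Ang2) before thinning. Markers of neurons and oligodendrocytes summed to 23.6 CPM (mIgG1), 22.5 (Ang2 Ab), 51.8 (Ctrl), and 10.3 (EC-Ang2) in ECs, mostly Mbp. Snap25 was at 0.0543 to 0.335 CPM, and the part of neuronal transcripts in the Nsg1 ratios was not tested. Neither of 2 related genes reached 50 UMIs in a pair.

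Adh1, at chr3:138260991-138290698, plus strand, encodes the class I alcohol dehydrogenase, which oxidizes ethanol and retinol. ECs had 101 UMIs (mIgG1), 17 (Ang2 Ab), 78 (Ctrl), and 234 (EC-Ang2) of it, or 5.48 CPM (4.47 to 6.66) for mIgG1, 1.09 (0.634 to 1.74) for Ang2 Ab, 4.36 (3.44 to 5.44) for Ctrl, and 11.8 (10.3 to 13.4) for EC-Ang2. EC-Ang2 was highest and Ang2 Ab lowest, with log2 ratios of −2.33 (−3.17 to −1.58) with blockade and 1.43 (1.06 to 1.82) with overexpression. Its UMIs lay mostly in the Ackr1 class, at 8.54 CPM (mIgG1), 1.95 (Ang2 Ab), 13.8 (Ctrl), and 14.4 (EC-Ang2), where the ratios were −2.13 (−3.19 to −1.22) and 0.06 (−0.38 to 0.52). With overexpression the Ackr1 value depended on how the class was set, at 0.43 with 1 UMI, 0.49 on thinned cells, and 1.39 with Nr2f2 in place of Ackr1. The ratio over all ECs with the class shares held was 0.64, against −1.94 with blockade. In the Slc38a5 class EC-Ang2 had 12 UMIs and Ctrl 5, a log2 ratio of 2.68 (1.07 to 4.54). A UMI was present in 0.917% (mIgG1), 0.122% (Ang2 Ab), 0.626% (Ctrl), and 1.37% (EC-Ang2) of thinned ECs and in 2.68% (mIgG1), 0.518% (Ang2 Ab), 1.70% (Ctrl), and 6.33% (EC-Ang2) before thinning, while immune cells had 1 to 6 UMIs per library. Barcodes of 1 to 100 UMIs, taken here as a measure of RNA set free from broken cells, had 11.0 CPM (mIgG1), 12.1 (Ang2 Ab), 3.83 (Ctrl), and 6.81 (EC-Ang2) of Adh1. This was more than ECs had in both libraries of the blockade pair. In that pair these barcodes also held the epithelial and Y-linked transcripts given above. Whether their Adh1 came from the sampled cells was not tested. In Ang2 Ab the level in ECs rests on 17 UMIs, of which free RNA would by that measure make up the share given further on. With free RNA subtracted by the share of immune genes in ECs, a setting added once the data had been seen, the blockade ratio was −3.75. It rests on 0.362 CPM left in Ang2 Ab, near the floor, and has no interval. By the share of EC genes in immune cells, which was planned, the ratio was −3.16. Of 7 other alcohol and retinol dehydrogenase genes, 4 had 50 UMIs, of which 0 passed 1.5-fold with blockade, where Aldh2 (0.19) was highest and Aldh1a1 (−0.21) lowest, and 1 was lower with overexpression, Rdh10 (−0.63).

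Car4, at chr11:84957786-84966044, plus strand, on the same chromosome as Scgb3a1 but 35.3 Mb away, encodes a membrane-anchored carbonic anhydrase of capillaries, which converts carbon dioxide and bicarbonate. Of the 8 genes it had the log2 ratio smallest in absolute size with blockade and the lowest log2 ratio with overexpression. Its level in ECs was 222 CPM (215 to 229) for mIgG1, 260.1 (252 to 268) for Ang2 Ab, 567 (556 to 578) for Ctrl, and 175 (169 to 181) for EC-Ang2, so that Ctrl stood apart from the other libraries. On the log2 scale the ratio was 0.23 (0.16 to 0.29) with blockade and −1.69 (−1.75 to −1.64) with overexpression. In the Slc38a5 class it was at 370.0 CPM (mIgG1), 424 (Ang2 Ab), 824 (Ctrl), and 283 (EC-Ang2), in the Mfsd2a class at 261, 250.1, 666, and 402 CPM, in the Ackr1 class at 175, 181, 278, and 145 CPM, and in the Bmx/Gkn3 class at 77.3, 48.3, 75.9, and 67.2 CPM. With overexpression the log2 ratio was −1.54 in the Slc38a5 class, −0.94 in the Ackr1 class, −0.73 in the Mfsd2a class, and −0.18 (−0.56 to 0.21) in the Bmx/Gkn3 class, and with the class shares held −1.10. With blockade the ratio was 0.06 with the class shares held, and −0.05 with every class weighted equally, which is in the opposite direction. A UMI was present in 29.3% (mIgG1), 32.5% (Ang2 Ab), 49.7% (Ctrl), and 26.3% (EC-Ang2) of thinned ECs, beside 1.44% (mIgG1), 1.95% (Ang2 Ab), 1.98% (Ctrl), and 0.867% (EC-Ang2) of immune cells, and in 46.5% (mIgG1), 46.5% (Ang2 Ab), 65.1% (Ctrl), and 46.3% (EC-Ang2) of ECs before thinning. Mural cells had 2394, 2162, 1689, and 2528 CPM, and at the share of mural markers found in ECs this would make at most 4.87% of the level in ECs. That share was partly set by the EC gate, and the part of mural transcripts in the Car4 values was not tested. Of 9 other carbonic anhydrase genes, 5 had 50 UMIs: Car7 (−1.39) was lower with blockade, and Car2 (3.14, from 143 to 1261 CPM) and Car13 (1.72) led 3 that were higher with overexpression, where Car4 was lower.

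Gda, at chr19:21391307-21473445, minus strand, encodes guanine deaminase, which turns guanine into xanthine in the breakdown of purines. Its level in ECs was 6.90 CPM (5.75 to 8.20) for mIgG1, 17.7 (15.7 to 19.9) for Ang2 Ab, 12.2 (10.7 to 14.0) for Ctrl, and 14.6 (13.0 to 16.4) for EC-Ang2, lowest in mIgG1. The log2 ratio was 1.36 (1.05 to 1.67) with blockade and 0.26 (0.00 to 0.52) with overexpression. Gda was mainly a gene of immune cells, with 107 CPM (mIgG1), 126 (Ang2 Ab), 108 (Ctrl), and 147 (EC-Ang2) there, and a UMI was present in 17.7% (mIgG1), 20.5% (Ang2 Ab), 16.3% (Ctrl), and 23.02% (EC-Ang2) of thinned immune cells, against 1.38% (mIgG1), 2.68% (Ang2 Ab), 1.67% (Ctrl), and 2.57% (EC-Ang2) of ECs. Before thinning these shares were 47.0% (mIgG1), 46.9% (Ang2 Ab), 36.3% (Ctrl), and 51.9% (EC-Ang2) of immune cells and 4.09% (mIgG1), 6.98% (Ang2 Ab), 5.15% (Ctrl), and 9.20% (EC-Ang2) of ECs. By the shares of free RNA described further on, it would make up 46.3% (mIgG1), 24.2% (Ang2 Ab), 16.7% (Ctrl), and 15.4% (EC-Ang2) of the Gda of ECs. Immune markers summed to 415 CPM (mIgG1), 389.6 (Ang2 Ab), 252 (Ctrl), and 242 (EC-Ang2) in ECs. The part of immune transcripts in the Gda ratios was not tested. In the Bmx/Gkn3 class Gda stood at 13.3 CPM (mIgG1), 43.1 (Ang2 Ab), 34.5 (Ctrl), and 37.8 (EC-Ang2), higher than in any other class of the same library, with log2 ratios of 1.70 (0.86 to 2.61) and 0.13 (−0.41 to 0.67). With the share of immune genes in ECs used to subtract free RNA, a setting added once the data had been seen, the ratio over all ECs was 1.85 with blockade. A list of 7 other genes was read for purine metabolism, though not all of them, such as Dpp4, encode its enzymes. Xdh (0.86) and Nt5e (0.60) were higher and Ada (−0.96) was lower with blockade. With overexpression 3 genes led by Ada (2.26) and Nt5e (0.80) were higher, and Dpp4 (−1.46) and Xdh (−0.73) were lower.

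**Figure D5:**
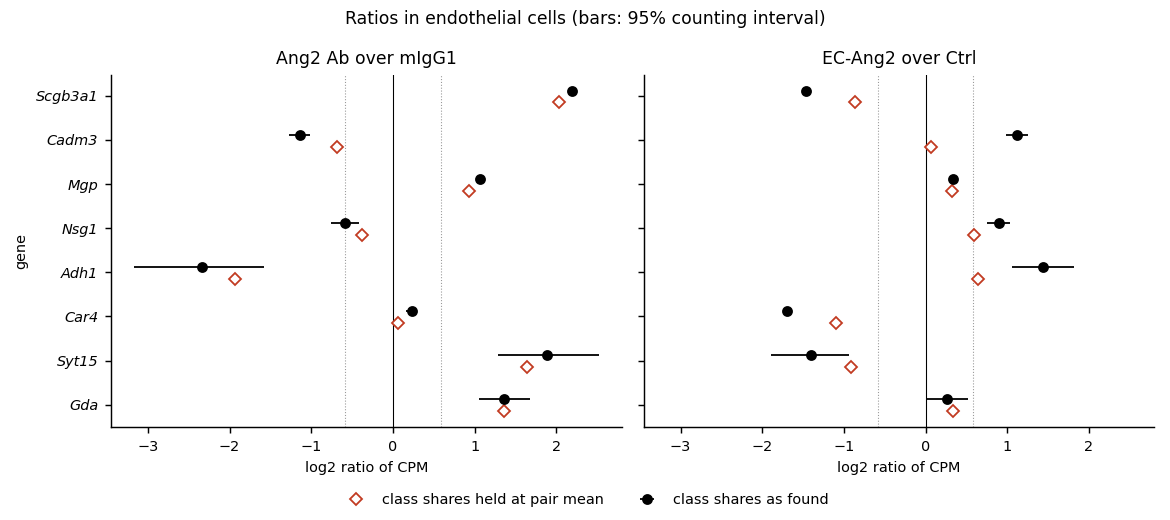
Log2 ratio of CPM in ECs (horizontal axis) of each gene (vertical axis) with blockade (left) and overexpression (right), as found with 95% counting intervals (filled circles) and with the class shares held at their mean over the pair (open diamonds). Dotted lines mark 1.5-fold. The setting of the diamonds was added once the data had been seen. Cadm3 lies at 1.12 as found and at 0.06 with the shares held in the overexpression panel.

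The free RNA in droplets was measured from genes of one cell type in the other. Genes restricted to ECs were present in immune cells at 4.18% (mIgG1), 4.35% (Ang2 Ab), 3.85% (Ctrl), and 3.68% (EC-Ang2) of their level in barcodes of 1 to 100 UMIs, and genes restricted to immune cells in ECs at 5.69% (mIgG1), 6.01% (Ang2 Ab), 3.73% (Ctrl), and 2.51% (EC-Ang2). These barcodes held 405 CPM (mIgG1), 1028 (Ang2 Ab), 792 (Ctrl), and 467 (EC-Ang2) of Scgb3a1, 24.9, 10.6, 12.4, and 32.7 CPM of Cadm3, 382, 484, 775, and 875 CPM of Mgp, and 243, 292, 268, and 148 CPM of Car4, with the libraries in the same order. At the larger of both shares, free RNA would make 1.18% to 2.61% of the Scgb3a1 of ECs, 1.32% to 1.53% of the Cadm3, at most 4.25% of the Mgp, 5.27% of the Nsg1, 6.75% of the Car4, and 4.52% of the Syt15. For Adh1 it would make 11.4% (mIgG1), 66.8% (Ang2 Ab), 3.38% (Ctrl), and 2.13% (EC-Ang2). By this estimate free RNA was a small share of the EC level of Scgb3a1, Cadm3, Mgp, Nsg1, Car4, and Syt15 in every library, and a large one for Gda in mIgG1 and Ang2 Ab and for Adh1 in Ang2 Ab. However, immune cells of Ang2 Ab held Adh1 at 0.309% of its level in these barcodes, from 1 UMI, below the 4.35% of EC genes. The 66.8% may thus be too high for Adh1, which was not tested. All these shares take the barcodes of 1 to 100 UMIs as RNA of the sampled cells. In the blockade pair, where they held epithelial and Y-linked transcripts, this was not tested.

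Across the 4 classes of the 4 libraries (16 points, of which 4 share each library), the genes fell into groups by their pattern of log2(CPM + 1). Cadm3 and Nsg1 had a Pearson correlation of 0.91, Mgp and Syt15 of 0.86, Mgp and Gda of 0.82, Syt15 and Gda of 0.78, and Adh1 and Nsg1 of 0.71, whereas Mgp and Car4 had one of −0.85. Scgb3a1 was nearest to Car4 among the 8, at 0.67. The points share libraries and marker genes, so these correlations are descriptions. Among 5659 genes with a mean of 20 CPM or more, the patterns most like that of Scgb3a1 were those of Spry1 (r = 0.92), Fnbp1l (r = 0.92), and Tshz2 (r = 0.90), and those most like Cadm3 were Ndufs8 (r = 0.94), Rps7 (r = 0.94), and Icam1 (r = 0.93). For Mgp they were Eln (r = 0.94), Bmx (r = 0.94), and Dst (r = 0.94), of which Bmx marks the class itself and Eln encodes elastin of the arterial wall. Those most like Nsg1 were Serpina3f (r = 0.95), Tnfaip3 (r = 0.93), and Ang (r = 0.93), and those most like Adh1 Tpt1 (r = 0.90), Lcp1 (r = 0.90), and Tpi1 (r = 0.89). Car4 was followed by Gatm (r = 0.96), Ccdc85a (r = 0.95), and Smox (r = 0.93), Syt15 by Uap1 (r = 0.89), Tnrc6c (r = 0.89), and Jag1 (r = 0.89), and Gda by Mcam (r = 0.92), Socs3 (r = 0.90), and Crim1 (r = 0.89).

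Lists of other endothelial genes were read beside the 8, counting genes with 50 UMIs in a pair, whatever the share of cells. Among all such genes 3.02% of 11255 were higher and 4.13% lower by 1.5-fold with blockade, and 8.56% higher and 8.49% lower of 11305 with overexpression. Of 20 genes on a list read for the blood-brain barrier, 0 were higher and 0 lower with blockade (median 0.01), from −0.56 for Slc16a1 and −0.23 for Slc7a5 to 0.20 for Mfsd2a and 0.30 for Spock2. With overexpression 14 were lower and 1, Plvap, was higher (median −0.87). Mfsd2a (−2.30) and Slc22a8 (−2.13) were the lowest and Plvap (2.98) and Tjp1 (0.12) the highest. Plvap was near the floor, at 0.503 CPM (9 UMIs) in Ctrl and 3.97 CPM (79 UMIs) in EC-Ang2. Its ratio is not read as that of a barrier gene. Car4 had a ratio of the same direction as transporter genes of capillaries in EC-Ang2. The share of Mfsd2a and Slc38a5 cells was also lower there than in Ctrl, and its part in these ratios was not tested. For Car4 the ratio with all class shares held is given above. Of 16 genes of Wnt signaling, 1 was lower with blockade, Tnfrsf19 (−0.79), and 6 with overexpression, led by Notum (−2.41) and Nkd1 (−1.13), with medians of 0.01 and −0.54.

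Interferon-induced genes and GTPases were lower with blockade and higher with overexpression, the directions of Cadm3, Nsg1, and Adh1. Of 14 such genes, 10 were lower with blockade (median −0.72), from −0.89 for Irgm1 and −0.89 for Gbp4 to −0.43 for Gbp2 and −0.08 for Irf1, and 13 were higher with overexpression (median 0.82), where Gbp2 (2.01) and Iigp1 (1.93) were highest and B2m (0.28) and Gbp3 (0.63) lowest. Of 6 adhesion molecules of ECs, Selp (−0.84) was lower with blockade, and 4 were higher with overexpression, led by Selp (2.32) and Sele (1.33). In the Ang-Tie family, of 5 measured genes of 7, Angpt2 alone passed 1.5-fold in either pair, by log2 ratios of 2.61 and 4.09, while Tek, named here because it encodes the receptor Tie2, was at −0.06 and −0.56. The lists hold genes that differ between classes of ECs, and their values come from the same libraries whose class shares differ.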

How the data were processed

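Cells of 4 libraries were profiled with 10x Genomics 3′ v2 droplet RNA sequencing. The authors deposited unfiltered UMI counts per gene and barcode, and Cell Ranger 2.1.1, Seurat 2.3.4, and the mm10 build are credited to the submitters' processing notes. The authors' filters on doublets, mitochondrial share, and cycling cells state no thresholds in the sources used here, and cell classes were rebuilt from marker genes, so they may differ from the study's.

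Barcodes with at least 2000 UMIs and under 10% mitochondrial UMIs were kept, 5415 to 7488 per library. A barcode was an EC, immune, mural, or fibroblast cell if it had at least 10 UMIs of that list and more than 5 times the UMIs of each other list. Barcodes with genes of more than 1 class, 266 to 568 per library, were left out as possible doublets, and Scrublet scores from scanpy 1.11.5 were used in an alternative. EC classes were set by at least 2 UMIs of their marker. UMIs were summed per library and scaled to 1000000 with Python 3.11.15, and edgeR 4.0.16 gave TMM factors for an alternative only. Total UMIs were 66631583 (mIgG1), 57954609 (Ang2 Ab), 52084739 (Ctrl), and 52796061 (EC-Ang2), of which ECs held 15614651 to 19893687. PCR copies are collapsed by UMI. Intervals of levels and ratios cover neither differences between mice nor those between cells of a library. With 1 library per condition no p-value was computed. The ratio calculation was tested on simulated data.

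For shares of cells with a UMI, each cell was thinned to 2000 UMIs, and no cell was left out because all had at least that many. Free RNA was measured from genes of ECs in immune cells and of immune cells in ECs, relative to barcodes of 1 to 100 UMIs. Positions are from GENCODE M21 on GRCm38 and promoter sequences from RefSeq on GRCm38.p6.

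The 8 genes and the gene lists were chosen with earlier results of these data known. Named besides the 8 were up to 2 genes with the highest and 2 with the lowest ratio of each list among those with 50 UMIs in a pair, and for likeness the 3 genes with the highest correlation, among genes with a mean of at least 20 CPM.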

Additional observations from a re-analysis of the deposited data

Results flagged for a closer look

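Car4 had log2 ratios of opposite sign in classes of ECs with blockade, 0.20 in the Slc38a5 class and −0.68 in the Bmx/Gkn3 class, and each counting interval left out 0. Under other ways to set the classes the signs were the same, but the values lay between 0.03 and 0.38 in the Slc38a5 class and between −0.77 and −0.18 in the Bmx/Gkn3 class. The difference between the classes was not tested, since each condition had 1 library.

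Mgp likewise had ratios of opposite sign with overexpression. The log2 ratio was 0.25 in the Bmx/Gkn3 class, 1.35 in the Mfsd2a class, and 1.24 in the Slc38a5 class, against −0.17 in the Ackr1 class, and this difference was not tested either. The sign in the Ackr1 class was not stable, at 0.13 with a minimum of 1 UMI and −0.06 with 3 UMIs, and the Bmx/Gkn3 value was −0.14 with Nr2f2 in place of Ackr1.

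Gda was found in immune cells, which the comparisons of ECs do not use, at a level above that of barcodes of 1 to 100 UMIs in each library. Relative to these barcodes it stood at 190.1% (mIgG1), 176% (Ang2 Ab), 204% (Ctrl), and 240.4% (EC-Ang2).

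Scgb3a1 in immune cells of Ang2 Ab was at 9.71% of its level in barcodes of 1 to 100 UMIs, above the highest of the genes restricted to ECs in the same library, which was at 9.41%. In the other libraries it lay below the highest of those genes. The part of free RNA in this value was not tested further.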

How the results depend on the processing

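Over 15 alternatives of cell selection, scaling, free RNA, depth, and class shares, the direction of the log2 ratio over all ECs was kept for the 8 genes in both comparisons, except for Car4 with blockade, which was −0.05 with each class weighted equally. Of 240 such values 175 lay inside the counting interval of the main value and 65 outside it. Within classes 83 lay inside and 75 outside, and some values of Scgb3a1, Cadm3, Mgp, Nsg1, Car4, and Gda changed sign with the way classes were set. These counts depend on the number of UMIs, because genes with few UMIs have wide intervals, and they do not measure stability. With overexpression, Scgb3a1 was −0.52 with equal class weights and Cadm3 0.06 with class shares held and 0.37 with equal class weights, all then short of 1.5-fold, and Mgp passed it at 0.82 with cells thinned to 2000 UMIs and 0.81 by the mean of each cell's CPM. Nsg1 with blockade lay near the 1.5-fold line, from −0.62 to −0.38, and was on the same side of it in 9 of 15 alternatives.

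The number of genes past 1.5-fold depended on the setting. With overexpression, 211 genes were lower by the mean of each cell's CPM, and 133 were higher and 159 lower with thinned cells. With equal class weights 252 were higher and 134 lower of 6775 genes. Of the 8 genes, 5 met the conditions on UMIs and cells, and 2 of these were then past the fold, from which nothing is read. With 10 UMIs in both libraries and no minimum share of cells, 771 genes were higher and 1002 lower with blockade, and 1543 higher and 1568 lower with overexpression. With 50 UMIs and no minimum share, added once the data had been seen, the counts were 340 and 465 with blockade and 968 and 960 with overexpression. The blockade counts were 3.02% and 4.13% of 11255 genes. There 6 of the 8 were past the fold, from which nothing is read because this contrast chose the genes. At 2-fold they were 20 and 14 with blockade and 157 and 116 with overexpression. The number of genes tested and the threshold set these last counts by construction, and the cause of the others was not tested. TMM and median-of-ratios scaling shifted log2 ratios by −0.03 with blockade and 0.05 with overexpression. No paired analysis was possible because each condition had 1 library.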
